A study of Mus musculus with 35 samples.

Results

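The insulin-like growth factor (IGF) system was followed through 10 of its genes: the ligands Igf1 and Igf2, the receptors Igf1r and Igf2r, and the binding proteins Igfbp2, Igfbp3, Igfbp4, Igfbp5, Igfbp6 and Igfbp7. They were taken by name from the 21203 genes of the deposited table, by a rule that uses no measured value, although earlier results of these data were known when the set was chosen. All 10 were among the 17131 genes that passed the filter on low counts and were tested.

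Bulk RNA-seq was done on brain tissue of 34 mice, with 1 library per mouse. All mice were adult males of the C57BL/6NCrl strain. The labels call the tissue left cortex, whereas the methods describe the region around a left hippocampal injection, and marker genes of hippocampus, striatum, thalamus and choroid plexus were present in every library beside those of cortex. Each group had 5 mice, except PBS at 3 weeks, which had 4 because the authors excluded 1 of its mice.

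Sham mice had no impact and no injection. Of the 5 Sham mice, 2 were collected with the week 1 groups and 3 with the week 3 groups, and they formed 1 group in the study and here. The other mice had a closed head injury and later a left hippocampal injection of PBS, of mesenchymal stromal cells (MSCs), or of MSCs transfected with synthetic interleukin-4 mRNA (IL-4 MSCs). Tissue was taken at 1 week (1 wpi) or 3 weeks (3 wpi) post injury. The injection followed the injury by days, so tissue at 1 wpi was also taken within days of the injection. Differences from Sham cover injury and injection together. The MSCs were a purchased stock of C57BL/6N origin, so their transcripts cannot be told apart from those of the host. In the labels, the number before the dash was shared by all mice of a treated group and differed between groups, so whatever it stands for cannot be told apart from the group.

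IGF ligands are small secreted proteins that resemble insulin. Igf1 and Igf2 act through the tyrosine kinase receptor Igf1r, while Igf2r, which is also the mannose 6-phosphate receptor, takes up Igf2 for degradation. The binding proteins hold the ligands outside cells and limit or prolong their access to the receptor. In the adult brain, Igf2 and Igfbp2 are known as products of the choroid plexus and meninges, and Igf1 is made by neurons, microglia and other cells.

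The members are spread over 7 chromosomes (GRCm38). Igf1 (ENSMUSG00000020053) spans chr10:87858265-87937042 on the plus strand and Igf2 (ENSMUSG00000048583) chr7:142650766-142666816 on the minus strand. Igf1r (ENSMUSG00000005533) lies at chr7:67952827-68233668 on the plus strand and Igf2r (ENSMUSG00000023830) at chr17:12682406-12769664 on the minus strand. Igfbp2 (ENSMUSG00000039323, chr1:72824503-72852474, plus) and Igfbp5 (ENSMUSG00000026185, chr1:72857932-72874884, minus) are neighbours that point at each other, with 5457 bases between their ends. Igfbp3 (ENSMUSG00000020427) is at chr11:7206086-7213923 on the minus strand and Igfbp4 (ENSMUSG00000017493) at chr11:99041244-99054392 on the plus strand. Igfbp6 (ENSMUSG00000023046) is at chr15:102144362-102149511 on the plus strand and Igfbp7 (ENSMUSG00000036256) at chr5:77349240-77408041 on the minus strand.

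Igfbp2, Igfbp3 and Igfbp5 were higher than in Sham in each of the 3 groups at 1 wpi, and Igfbp4 was called in no comparison. The sequence upstream of their start sites is shown so that these promoters can be set side by side. It comes from the RefSeq promoter table (GRCm38.p6), which held all 10 members with 14 start sites. The windows are chr1:72824230-72824479 (plus) for Igfbp2, chr11:7213924-7214173 (minus) for Igfbp3, chr1:72874885-72875115 (minus) for Igfbp5 and chr11:99040994-99041243 (plus) for Igfbp4. Each is printed 5′ to 3′ on the strand of its gene, with 231 bases for Igfbp5 and 250 for the others, and capitals mark motif matches. Igfbp2 has a second start site in the table, which is not shown.
Igfbp2: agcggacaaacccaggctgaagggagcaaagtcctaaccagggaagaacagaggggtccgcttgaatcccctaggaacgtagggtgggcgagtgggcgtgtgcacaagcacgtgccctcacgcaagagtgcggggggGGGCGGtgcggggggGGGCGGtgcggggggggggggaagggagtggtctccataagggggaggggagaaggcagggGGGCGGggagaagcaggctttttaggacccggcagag
Igfbp3: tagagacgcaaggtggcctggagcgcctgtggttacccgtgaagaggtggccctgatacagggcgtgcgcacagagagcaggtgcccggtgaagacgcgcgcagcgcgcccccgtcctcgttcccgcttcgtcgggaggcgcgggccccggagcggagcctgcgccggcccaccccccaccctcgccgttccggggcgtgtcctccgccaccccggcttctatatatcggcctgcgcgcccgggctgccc
Igfbp5: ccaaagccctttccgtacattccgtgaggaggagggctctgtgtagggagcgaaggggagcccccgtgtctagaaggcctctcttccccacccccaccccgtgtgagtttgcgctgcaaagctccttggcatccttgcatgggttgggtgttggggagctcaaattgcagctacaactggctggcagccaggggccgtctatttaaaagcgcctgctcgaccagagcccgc
Igfbp4: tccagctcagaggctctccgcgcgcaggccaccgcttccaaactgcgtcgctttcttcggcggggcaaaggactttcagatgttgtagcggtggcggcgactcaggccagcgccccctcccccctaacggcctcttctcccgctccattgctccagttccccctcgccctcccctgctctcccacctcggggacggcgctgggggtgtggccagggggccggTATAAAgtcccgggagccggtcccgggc
Of the motifs searched on both strands, Igfbp2 held 3 GC boxes (GGGCGG) and Igfbp4 held 1 TATA box (TATAAA). No match to these, to CCAAT, to the AP-1 site TGANTCA or to the STAT site TTCNNNGAA was found in the Igfbp3 and Igfbp5 windows. Among 32851 promoter windows of the same length, 250 bases, 32.7% held GGGCGG, 12.4% TATAAA, 33.8% CCAAT, 6.75% TGANTCA and 7.02% TTCNNNGAA. Over the whole 250 bases before each start site, the GC content was 67.2% for Igfbp2, 73.2% for Igfbp3, 58.8% for Igfbp5 and 69.2% for Igfbp4, against a median of 52.4% over all windows. The search also covered 250 bases for Igfbp5, whose last bases are not printed because GENCODE places them inside the gene. A match to these letters is a description of the window and not a site of binding.

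The libraries held 29838423 to 41554322 estimated counts, at which 3 counts correspond to 0.0722 to 0.101 CPM (counts-per-million, scaled by the library total). Every member was above this level in every mouse, and the level covers counting error only. Group differences are log2 fold changes on TMM-scaled counts, tested with the quasi-likelihood method of edgeR and all 34 libraries in 1 fit, and a gene was called at a Benjamini-Hochberg adjusted p-value under 0.05 over all genes tested. The p-values measure the spread between mice of a group. TMM centres the genes differently from the library total: in IL-4 MSC against Sham at 1 wpi the median log2 fold change of all genes was -0.02 with TMM and 0.05 on library size alone. Small differences in CPM can therefore differ in sign from the fitted ones. Sham replicate 4 and MSC 3 wpi replicate 4 stood apart from their groups in macrophage markers, with a mean log2 CPM over 13 genes of 3.85 and 4.57. Their group mates ranged from 2.97 to 3.16 and from 3.66 to 3.92.

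Levels were compared between genes only per length, as deposited transcripts-per-million (TPM). In Sham, Igfbp5 had the highest level of the members at 83.1 ± 5.06 TPM (SD, n = 5). Igf2 followed at 61.2 ± 3.10 TPM, Igfbp4 at 56.6 ± 3.01 TPM and Igfbp2 at 53.7 ± 3.86 TPM. The ranges of Igf2 and Igfbp4 overlapped, as did those of Igfbp4 and Igfbp2. Igfbp6 stood at 37.2 ± 6.44 TPM, Igfbp7 at 32.9 ± 10.9 TPM and Igf1r at 25.1 ± 0.994 TPM, and here too the neighbours overlapped. Igf2r at 14.2 ± 0.704 TPM, Igfbp3 at 8.44 ± 0.774 TPM and Igf1 at 5.79 ± 0.561 TPM were separate from one another. Igfbp5 had the highest and Igf1 the lowest mean TPM of the 10 members in all 7 groups. Igfbp2 moved from rank 4 in Sham to rank 2 in the 3 groups at 1 wpi, and Igfbp7 from rank 6 in Sham to rank 3 in IL-4 MSC at 1 wpi.

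**Figure D1:**
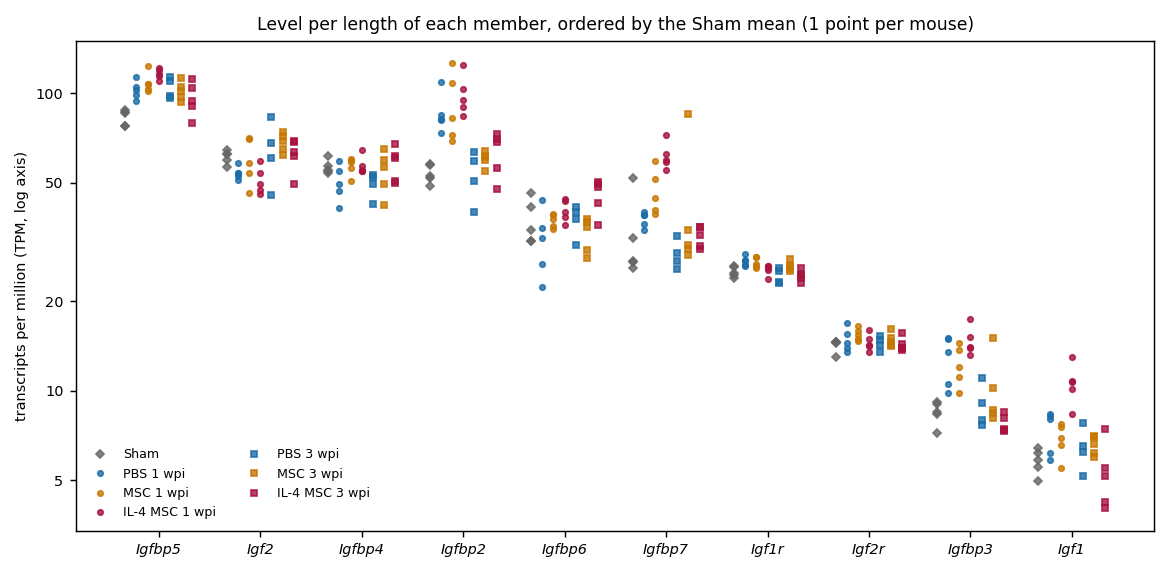
Level per length of the 10 members in every mouse, in TPM on a log axis, ordered by the Sham mean; each point is 1 mouse and colours and shapes give the 7 groups. Igfbp5 lies at the top (Sham mean 83.1 TPM) and Igf1 at the bottom (5.79 TPM), and the 1 wpi points of Igfbp2 lie above its Sham points.

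Against Sham, the injured groups at 1 wpi had higher levels of the binding proteins Igfbp2, Igfbp3 and Igfbp5. IL-4 MSC at 1 wpi also had higher Igf1 and Igfbp7. At 3 wpi, the one member called by edgeR was Igfbp5, in MSC. Its difference from Sham in PBS was no smaller but did not pass (0.32, adjusted p = 0.131). The 6 comparisons share the same Sham mice.

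In PBS at 1 wpi, 3 of 10 members were called, all higher (edgeR), where 8.7% of all genes tested were called higher and 4.99% lower. In MSC at 1 wpi, the called members were the same 3, with 10.9% of genes higher and 6.86% lower. In IL-4 MSC at 1 wpi, 5 of 10 members were called, all higher, with 18.4% of genes higher and 18.4% lower. Scaling by library size alone raised the share of called genes that were higher from 63.6% to 83.1% in PBS, from 61.5% to 86.6% in MSC and from 49.9% to 77.2% in IL-4 MSC. The median log2 fold change of the 10 members was 0.08, 0.08 and 0.24 in PBS, MSC and IL-4 MSC, beside -0.0054, -0.0082 and -0.02 over all genes tested.

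At 3 wpi, edgeR called 0 members in PBS against Sham, where 0.0117% of all genes were higher and 0.00584% lower. There, 2 members had an unadjusted p-value under 0.05, and DESeq2 called 1, Igfbp5. The 3 genes called in that comparison in all split into 2 higher and 1 lower, against 11 higher and 2 lower by DESeq2. In MSC, 1 member was called, Igfbp5, with 1.13% of genes higher and 0.035% lower. In IL-4 MSC, edgeR called 0 members, with 2.63% of genes higher and 1.39% lower, while 3 members had an unadjusted p-value under 0.05 and DESeq2 called 1, again Igfbp5. When Sham was limited to its 2 mice of week 1, edgeR called 0 members in PBS at 1 wpi, and with its 3 mice of week 3 it called 0 in MSC. The values are given with each gene. Striatum markers also differed between the Sham mice of week 1 and of week 3, as given with Igf1. Their part in the calls lost here was not tested.

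**Figure D2:**
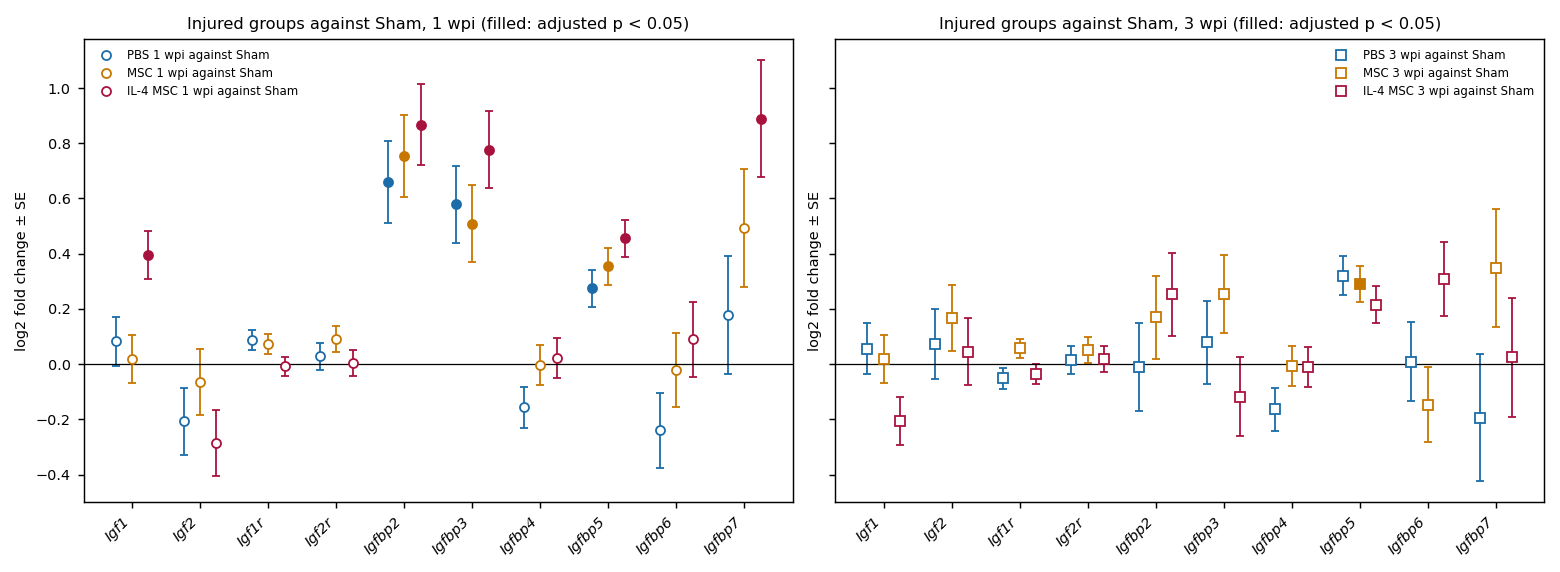
Log2 fold change ± standard error of each member against Sham, at 1 wpi (left) and 3 wpi (right), for PBS, MSC and IL-4 MSC; filled symbols passed an adjusted p-value of 0.05 in edgeR's quasi-likelihood test. Igfbp2, Igfbp3 and Igfbp5 are filled in all 3 groups at 1 wpi, and Igfbp5 in MSC is the one filled symbol at 3 wpi. The open Igfbp5 symbol of PBS at 3 wpi lies no lower, at 0.32.

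Comparing treatments at the same week, the members that differed were Igf1 and Igfbp7, both in IL-4 MSC at 1 wpi. MSC against PBS at 1 wpi gave 0 called members by edgeR and 0 by DESeq2, with 1 at an unadjusted p-value under 0.05, where 0.0992% of all genes were higher and 0% lower. IL-4 MSC against PBS at 1 wpi gave 2 of 10, with 11.1% of genes higher and 6.02% lower. Of the genes called there, 64.9% were higher, and 84.2% on library size alone. IL-4 MSC against MSC at 1 wpi gave 1 of 10, with 7.65% of genes higher and 1% lower.

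MSC against PBS at 3 wpi gave 0 by edgeR and 0 by DESeq2, with 2 at an unadjusted p-value under 0.05, where 0.0759% of genes were higher and 0% lower. IL-4 MSC against PBS at 3 wpi gave 0 by edgeR and 0 by DESeq2, with 2 at an unadjusted p-value under 0.05, where 2.13% of genes were higher and 0.765% lower. IL-4 MSC against MSC at 3 wpi gave 0 by edgeR and 1 by DESeq2, with 4 at an unadjusted p-value under 0.05, where 2.22% of genes were higher and 1.09% lower. These shares at 3 wpi rested on the fit: the 688, 496 and 566 genes called in IL-4 MSC against Sham, PBS and MSC became 107, 7 and 0 with striatum markers as a term, and 98, 0 and 0 with only the pair of groups in the fit. Without IL-4 MSC 3 wpi replicate 1, edgeR called 1 member against PBS, Igf1, and 3 against MSC, Igf1, Igf1r and Igfbp6.

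Between the weeks, calls were downward except for Igf2 in IL-4 MSC. PBS had 3 of 10 members lower at 3 than at 1 wpi, where 0.607% of all genes were higher and 4.86% lower. MSC had 1 of 10 lower, with 1.17% of genes higher and 4.91% lower, and 19.2% of the called genes were higher, or 5.35% on library size alone. IL-4 MSC had 5 of 10 lower and 1 higher, with 16.3% of genes higher and 16.5% lower, and 49.7% of the called genes were higher, or 25.1% on library size alone.

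Whether a treatment difference itself differed between 1 and 3 wpi was tested as an interaction. For MSC against PBS, edgeR and DESeq2 each called 0 members and edgeR called 0% of all genes, with 1 member and 558 genes at an unadjusted p-value under 0.05. For IL-4 MSC against PBS, 1 member was called among 4.65% of all genes, and 83.8% of those genes were positive, or 94.5% on library size alone. This was Igf1, whose difference was larger at 1 wpi than at 3 wpi by 0.58 on the log2 scale (SE 0.127, adjusted p = 0.00514). For IL-4 MSC against MSC, 2 members were called among 7.7% of all genes: Igf1 at 0.60 (SE 0.124, adjusted p = 0.00158) and Igfbp3 at 0.64 (SE 0.197, adjusted p = 0.0405). The Igfbp3 differences of IL-4 MSC from MSC behind this were 0.27 at 1 wpi (adjusted p = 0.279) and -0.37 at 3 wpi (adjusted p = 0.146). The Igf1 calls held under every alternative fitted. The Igfbp3 call was lost under 12 of 28, among them without MSC 3 wpi replicate 4 (0.47, adjusted p = 0.109) and with striatum markers in the fit (0.45, adjusted p = 0.182). It was also lost without any one of MSC 1 wpi replicates 0, 1 and 3 (adjusted p = 0.0693, 0.076 and 0.055), IL-4 MSC 1 wpi replicates 0 and 2 (adjusted p = 0.0801 and 0.0522) or IL-4 MSC 3 wpi replicates 0, 2 and 4 (adjusted p = 0.0632, 0.0616 and 0.0686).

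**Figure D3:**
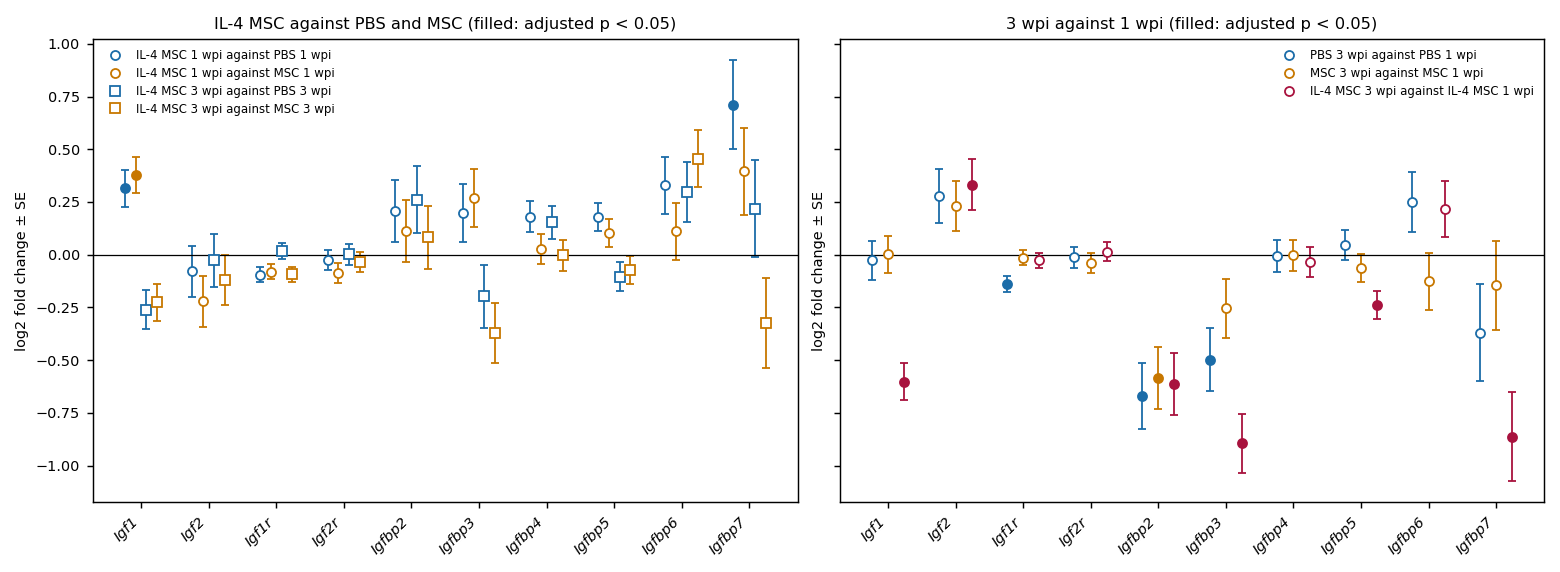
Log2 fold change ± standard error of each member for IL-4 MSC against PBS and MSC at each week (left) and for 3 wpi against 1 wpi within each treatment (right); filled symbols passed an adjusted p-value of 0.05. In the left panel Igf1 and Igfbp7 are filled at 1 wpi, and in the right panel Igfbp2 is filled for all 3 treatments.

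Igf1, the ligand of Igf1r that is also the main mediator of growth hormone, was higher in IL-4 MSC at 1 wpi than in every other group it was tested against. In Sham, the 5 mice had 16.0, 16.3, 16.5, 16.25 and 13.8 CPM. In IL-4 MSC at 1 wpi, they had 24.4, 23.4, 19.9, 21.0 and 20.7 CPM. All 5 IL-4 MSC mice lay above all Sham mice, and the groups did not overlap.

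PBS at 1 wpi had 18.1, 18.9, 16.9, 15.85 and 16.0 CPM of Igf1, and MSC at 1 wpi had 17.3, 15.2, 16.4, 16.3 and 17.35 CPM. The lowest IL-4 MSC mouse stood above the highest of either group. The log2 fold change of Igf1 in IL-4 MSC at 1 wpi was 0.40 against Sham (SE 0.0868, 1.32-fold, adjusted p = 0.000444, edgeR). It was 0.31 against PBS (SE 0.0865, 1.24-fold, adjusted p = 0.01) and 0.38 against MSC (SE 0.0867, 1.30-fold, adjusted p = 0.00283). PBS and MSC at 1 wpi differed from Sham in Igf1 by 0.08 (adjusted p = 0.624) and 0.02 (adjusted p = 0.928). With Sham limited to its 2 mice of week 1, the Igf1 difference of IL-4 MSC was 0.36 (adjusted p = 0.0182).

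At 3 wpi, the IL-4 MSC mice no longer stood above the other groups in Igf1. The 5 mice had 13.9, 18.55, 13.1, 12.2 and 11.3 CPM, a mean of 13.8 ± 2.82 (SD, n = 5). PBS at 3 wpi had 18.2, 14.85, 17.0 and 16.4 CPM, and MSC at 3 wpi had 16.0, 14.7, 17.2, 15.7 and 17.25 CPM. In 4 of the 5 IL-4 MSC mice Igf1 was below every PBS and MSC mouse of that week, and replicate 1 was above all of them.

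Igf1 fell by 0.60 on the log2 scale from IL-4 MSC at 1 wpi to IL-4 MSC at 3 wpi (SE 0.0873, adjusted p = 1.7e-06), and the ranges of these groups did not overlap. The differences of IL-4 MSC at 3 wpi from Sham (-0.21, adjusted p = 0.184), PBS (-0.26, adjusted p = 0.121) and MSC (-0.23, adjusted p = 0.158) did not pass. Without IL-4 MSC 3 wpi replicate 1 they were -0.34 (adjusted p = 0.00283), -0.40 (adjusted p = 0.000987) and -0.36 (adjusted p = 0.0015). That replicate had a mean log2 CPM of 13 striatum markers of 4.64, and the other 4 mice had 6.58 to 7.36. The summed striatum markers ranged from 366 to 1167 CPM in Sham and from 545 to 3247 CPM in IL-4 MSC at 3 wpi, none was at 0 in all libraries, and 8 of 13 were called higher than in Sham. Within Sham, these sums split by week: 391 and 366 CPM in the 2 mice of week 1, and 948 to 1167 CPM in the 3 mice of week 3. When the fit held the striatum score as a covariate, the Igf1 difference between the weeks in IL-4 MSC was -0.50 (adjusted p = 1.09e-05), and that of IL-4 MSC from Sham at 1 wpi was 0.44 (adjusted p = 2.1e-05). With that covariate and all libraries, the Igf1 differences of IL-4 MSC at 3 wpi from Sham, PBS and MSC did not pass. The fit without replicate 1 was not run with the covariate.

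The deposited TPM gave a larger difference for Igf1 than the counts did. Mean Igf1 was 5.79 TPM in Sham and 10.6 ± 1.66 TPM in IL-4 MSC at 1 wpi (SD, n = 5). PBS and MSC at 1 wpi had 7.33 ± 1.21 and 6.85 ± 0.90 TPM, and no difference in TPM was tested. The ratio of CPM to TPM, which follows the mix of long and short transcripts that kallisto assigned, was 2.73 in Sham and 2.08 in IL-4 MSC at 1 wpi. It was 2.37 in PBS and 2.44 in MSC at 1 wpi, and 2.62, 2.47 and 2.66 in PBS, MSC and IL-4 MSC at 3 wpi. Its highest group mean was 1.31 times its lowest for Igf1, and 1.03 to 1.08 times for the other 9 members. Igf1 had estimated counts that were not whole numbers in 34 of 34 libraries.

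Igf2, the ligand known from fetal growth and from choroid plexus and meninges, was called in 1 of the 15 comparisons, and its values within a group lay far apart in several groups. Sham mice had 109.5, 112, 113, 100.3 and 104 CPM, and PBS mice at 1 wpi had 93.1, 95.3, 89.8, 95.9 and 105 CPM. The 4 PBS mice at 3 wpi had 148.5, 79.1, 121 and 111 CPM, so that the lowest and highest values of this group enclosed all Sham mice. MSC mice at 1 wpi spread from 81.5 to 128 CPM and at 3 wpi from 111 to 132 CPM.

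Igf2 rose from 1 to 3 wpi in IL-4 MSC, from 85.8, 84.4, 96.9, 109 and 89.3 CPM to 124, 109, 123, 89.7 and 116.5 CPM. The ranges overlapped. The log2 fold change was 0.33 (SE 0.12, adjusted p = 0.0335), and this was lost under 10 of 17 alternatives. Leaving out any one of 4 IL-4 MSC mice at 1 wpi (replicates 0, 1, 2 and 4) or of 4 at 3 wpi (replicates 0, 1, 2 and 4) ended the call, with adjusted p-values of 0.114, 0.127, 0.0723 and 0.0931 and of 0.0798, 0.0767, 0.125 and 0.0637. IL-4 MSC at 1 wpi differed from Sham in Igf2 by -0.29 (adjusted p = 0.0628), and by -0.33 without IL-4 MSC 1 wpi replicate 3 (adjusted p = 0.0474). With only the pair of groups in the fit, Igf2 was lower than in Sham in PBS at 1 wpi (-0.21, adjusted p = 0.0159) and in IL-4 MSC at 1 wpi (-0.26, adjusted p = 0.0101).

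Igf2 went with choroid plexus markers over the libraries as a whole, but not in every mouse. The mean log2 CPM of 10 such genes, among them Ttr, was 1.5 in PBS 3 wpi replicate 1, which had the lowest Igf2 of all mice at 79.1 CPM. Sham replicate 1 had the next lowest score, 2.62, yet its Igf2 was above the Sham mean of 107.9 CPM. Summed, these markers ranged from 228 to 1297 CPM in PBS at 3 wpi and from 637.6 to 1659 CPM in IL-4 MSC at 3 wpi, and none was at 0 in all libraries. Over 34 libraries, with the group mean taken out of both, Pearson's r was 0.62 for Igf2 and 0.62 for Igfbp2. The points share library and dissection, and r was not computed without PBS 3 wpi replicate 1. The choroid plexus score was put in the fit as a covariate after seeing the data. With it, Igf2 in IL-4 MSC at 1 wpi differed from Sham by -0.37 on the log2 scale (adjusted p = 0.00396), and PBS at 3 wpi differed from PBS at 1 wpi by 0.36 (adjusted p = 0.0414). Without PBS 3 wpi replicate 1, the latter difference was 0.42 (adjusted p = 0.0416), against 0.28 with all libraries (adjusted p = 0.254).

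Igf1r, the signalling receptor, changed in a single comparison. Its 5 Sham mice ranged from 131 to 144 CPM, PBS at 1 wpi from 146 to 157 CPM and MSC at 1 wpi from 145 to 157 CPM. Both of these groups lay above Sham without overlap, yet the TMM-scaled differences of 0.09 (SE 0.0354, adjusted p = 0.106) and 0.07 (SE 0.0354, adjusted p = 0.171) did not pass. On library size alone they were 0.12 (adjusted p = 0.0182) and 0.12 (adjusted p = 0.0178).

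From PBS at 1 wpi to PBS at 3 wpi, where the 4 mice had 128.9, 129, 142 and 143 CPM, Igf1r fell by 0.14 on the log2 scale (SE 0.0376, adjusted p = 0.0229). Without PBS 1 wpi replicate 2 or PBS 3 wpi replicate 0 or 1, the adjusted p-value was 0.0555, 0.135 or 0.125. It was 0.138 with only the pair of groups in the fit and 0.0501 with the choroid plexus score as a covariate. Igf2r, the clearance receptor, was called in none of the 15 comparisons, and its level was between 57.2 and 72.1 CPM in all 34 mice. Its largest group mean was that of MSC at 1 wpi, at 67.0 ± 3.43 CPM against 60.9 ± 2.11 CPM in Sham (SD, n = 5).

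Igfbp2, a binding protein of choroid plexus, meninges and glia, had the largest fold of the members in PBS and in MSC against Sham at 1 wpi. Sham mice had 31.25, 26.3, 28.85, 30.5 and 27.55 CPM. PBS mice at 1 wpi had 39.2, 60.15, 43.8, 46.1 and 44.9 CPM, and MSC mice had 59.9, 39.3, 69.9, 45.1 and 37.6 CPM. Every one of these 10 injured mice lay above the highest Sham mouse.

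IL-4 MSC mice at 1 wpi had 69.0, 47.9, 53.2, 57.9 and 49.1 CPM of Igfbp2, also without overlap with Sham. The log2 fold change against Sham was 0.66 in PBS (SE 0.148, 1.58-fold, adjusted p = 0.00226), 0.75 in MSC (SE 0.148, 1.69-fold, adjusted p = 0.000411) and 0.87 in IL-4 MSC (SE 0.148, 1.82-fold, adjusted p = 2.33e-05). The 2 Sham mice of week 1 alone gave 0.64 (adjusted p = 0.0535), 0.75 (adjusted p = 0.0183) and 0.87 (adjusted p = 0.00268). With the choroid plexus score as a covariate they were 0.57, 0.63 and 0.78, and each passed. No difference in Igfbp2 between PBS, MSC and IL-4 MSC passed at 1 wpi, where IL-4 MSC against PBS was 0.21 (SE 0.145, adjusted p = 0.379).

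By 3 wpi, Igfbp2 was at 22.0 to 34.4 CPM in PBS, 29.9 to 34.8 CPM in MSC and 26.2 to 41.2 CPM in IL-4 MSC, all overlapping Sham. It fell from 1 to 3 wpi by 0.67 in PBS (SE 0.158, adjusted p = 0.00783), by 0.59 in MSC (SE 0.148, adjusted p = 0.0128) and by 0.62 in IL-4 MSC (SE 0.147, adjusted p = 0.00151). Without PBS 3 wpi replicate 1, the library low in choroid plexus markers, the PBS difference was -0.56 (adjusted p = 0.0599). Without MSC 1 wpi replicate 2, the highest Igfbp2 value, the MSC difference was -0.45 (adjusted p = 0.0756).

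Igfbp3, the main carrier of IGFs in blood, was low in Sham, at 9.78, 9.75, 7.89, 8.85 and 8.82 CPM. At 1 wpi, PBS mice had 10.55, 16.6, 15.7, 11.5 and 14.8 CPM, MSC mice had 12.2, 10.6, 15.7, 13.02 and 14.9 CPM, and IL-4 MSC mice had 19.1, 14.8, 16.7, 15.6 and 15.2 CPM. All 15 mice lay above all Sham mice. The log2 fold change was 0.58 in PBS (SE 0.14, 1.49-fold, adjusted p = 0.00429), 0.51 in MSC (SE 0.14, 1.42-fold, adjusted p = 0.0097) and 0.78 in IL-4 MSC (SE 0.14, 1.71-fold, adjusted p = 4.02e-05). Against the Sham mice of week 1 alone, the adjusted p-values were 0.145, 0.19 and 0.00981, with differences of 0.44, 0.38 and 0.66.

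At 3 wpi, Igfbp3 was at 8.29 to 11.9 CPM in PBS and 7.95 to 9.20 CPM in IL-4 MSC. MSC mice had 9.26, 11.2, 8.99, 8.76 and 16.15 CPM, and the high mouse was replicate 4. Igfbp3 fell from 1 to 3 wpi by 0.90 in IL-4 MSC (SE 0.14, adjusted p = 6.92e-06) and by 0.50 in PBS (SE 0.149, adjusted p = 0.0422). The PBS call was lost under 9 of 16 alternatives, among them leaving out PBS 1 wpi replicate 1, 2 or 4 (adjusted p = 0.145, 0.11 and 0.0793) or any PBS 3 wpi replicate from 1 to 3 (adjusted p = 0.155, 0.0889 and 0.127). In MSC the difference was -0.25 (adjusted p = 0.349), and without MSC 3 wpi replicate 4 it was -0.44 (adjusted p = 0.022).

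Igfbp5, a binding protein that attaches to the extracellular matrix and is found in neurons and glia, rose against Sham in all 3 groups at 1 wpi. Sham mice had 244, 246, 229, 252 and 219 CPM. PBS mice at 1 wpi had 323, 289, 289.7, 301 and 273 CPM, MSC mice had 297, 309, 311, 299 and 357 CPM, and IL-4 MSC mice had 333, 349, 360.1, 327 and 347 CPM. None of the 15 injured mice overlapped Sham.

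The log2 fold change of Igfbp5 against Sham was 0.27 in PBS (SE 0.0666, 1.21-fold, adjusted p = 0.00429), 0.35 in MSC (SE 0.0666, 1.28-fold, adjusted p = 0.000207) and 0.46 in IL-4 MSC (SE 0.0666, 1.37-fold, adjusted p = 1.55e-06). The Sham mice of week 1 alone gave 0.21 (adjusted p = 0.134), 0.29 (adjusted p = 0.0241) and 0.41 (adjusted p = 0.000801). IL-4 MSC and PBS differed by 0.18 at 1 wpi (adjusted p = 0.0578). That difference was called without PBS 1 wpi replicate 0 (0.22, adjusted p = 0.0314), IL-4 MSC 1 wpi replicate 0 (0.21, adjusted p = 0.0452) or IL-4 MSC 1 wpi replicate 3 (0.22, adjusted p = 0.0335), and by DESeq2 (0.20, adjusted p = 0.029).

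Igfbp5 was also high at 3 wpi. PBS mice had 282, 279, 323 and 320.1 CPM and MSC mice had 266, 295.5, 325, 283 and 301 CPM, all above every Sham mouse. IL-4 MSC mice had 303.5, 318.5, 261, 232 and 278 CPM, of which replicate 3 lay within the Sham range. Against Sham, Igfbp5 was higher by 0.29 in MSC (SE 0.0666, 1.22-fold, adjusted p = 0.0196). In PBS it differed by 0.32 (SE 0.0703, adjusted p = 0.131) and in IL-4 MSC by 0.22 (SE 0.0665, adjusted p = 0.0589), and DESeq2 called both, with adjusted p-values of 0.0171 and 0.0341. The MSC call was lost without Sham replicate 2 (adjusted p = 0.0708), MSC 3 wpi replicate 2 (0.0561 as the adjusted p) or MSC 3 wpi replicate 4 (0.0804 as the adjusted p). In IL-4 MSC, Igfbp5 passed against Sham without IL-4 MSC 3 wpi replicate 3 (0.27, adjusted p = 0.0167). Against the 3 Sham mice of week 3 alone, the MSC difference was 0.32 (adjusted p = 0.0714). Between the weeks, Igfbp5 fell in IL-4 MSC by 0.24 (SE 0.0664, adjusted p = 0.00533). The mean log2 CPM of 9 hippocampus markers was 3.43 to 3.63 in IL-4 MSC at 1 wpi and 1.4 to 4.03 at 3 wpi. For 8 thalamus markers it was 5.14 to 5.67 and 3.51 to 5.98. Replicate 3 at 3 wpi was lowest in hippocampus markers and in Igfbp5, while replicate 0, next lowest at 1.89, had 303.5 CPM. Igfbp5 had an r of 0.431 to the hippocampus score, and no fit held that score as a covariate.

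Igfbp7, which binds IGFs weakly and is known from blood vessels and senescent cells, was highest in IL-4 MSC at 1 wpi. Sham mice had 11.6, 12.2, 12.3, 14.6 and 23.0 CPM, with replicate 4 apart from the rest. PBS mice at 1 wpi had 15.4, 17.9, 16.0, 18.1 and 17.7 CPM, MSC mice had 27.0, 20.1, 23.6, 18.3 and 17.8 CPM, and IL-4 MSC mice had 27.3, 29.6, 27.25, 33.6 and 25.2 CPM. IL-4 MSC lay above Sham and PBS without overlap and overlapped MSC.

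The log2 fold change of Igfbp7 in IL-4 MSC at 1 wpi was 0.89 against Sham (SE 0.212, 1.85-fold, adjusted p = 0.00127) and 0.71 against PBS (SE 0.21, 1.64-fold, adjusted p = 0.0178). Against MSC it was 0.40 (SE 0.208, adjusted p = 0.298). Without Sham replicate 4 and MSC 3 wpi replicate 4, the 2 libraries high in macrophage markers, the difference from Sham was 1.13 in IL-4 MSC (adjusted p = 1.77e-10). It was then 0.72 in MSC (adjusted p = 3.96e-06) and 0.39 in PBS (adjusted p = 0.00817), which in the fit of all libraries were 0.49 (adjusted p = 0.115) and 0.18 (adjusted p = 0.675). Both libraries were left out after seeing the data, and each held the highest Igfbp7 of its group. Leaving out Sham replicate 4 raises the difference from Sham and narrows the spread by construction, so these values are no independent test.

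At 3 wpi, Igfbp7 was at 11.65 to 15.1 CPM in PBS and 13.6 to 16.3 CPM in IL-4 MSC. MSC mice had 12.8, 13.7, 15.6, 14.0 and 38.3 CPM, and the last value, of replicate 4, was the highest Igfbp7 of all mice. In IL-4 MSC it fell from 1 to 3 wpi by 0.86 (SE 0.211, adjusted p = 0.00196). In MSC the difference was -0.14 (adjusted p = 0.799), and -0.58 without MSC 3 wpi replicate 4 and Sham replicate 4 (adjusted p = 0.000208). That removal, too, was chosen after seeing the data and takes out the highest MSC value.

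Igfbp4, a binding protein that mostly holds back IGF action, and Igfbp6, which prefers Igf2 over Igf1, were called in none of the 15 comparisons. Igfbp4 was between 46.0 and 68.8 CPM in all mice. Without PBS 1 wpi replicate 4, both passed in PBS against Sham at 1 wpi, at -0.23 (adjusted p = 0.0256) and -0.39 (adjusted p = 0.0436), and both in IL-4 MSC against PBS, at 0.27 (adjusted p = 0.00743) and 0.49 (adjusted p = 0.00827). Igfbp6 ranged from 10.2 CPM in PBS 1 wpi replicate 1 to 23.05 CPM in IL-4 MSC 3 wpi replicate 4. In IL-4 MSC at 3 wpi, Igfbp6 was at 19.5, 16.0, 21.9, 22.8 and 23.05 CPM, against 12.8 to 16.9 CPM in MSC. The log2 difference was 0.45 (SE 0.135, adjusted p = 0.0553), and DESeq2 gave an adjusted p-value of 0.0227. Interneuron markers moved with Igfbp6: their mean log2 CPM over 8 genes correlated with it at an r of 0.854 over 34 libraries after removal of group means. Their summed level ranged from 880 to 1030 CPM in Sham, from 786.5 to 975 CPM in MSC at 3 wpi and from 836 to 1266 CPM in IL-4 MSC at 3 wpi, none was at 0 in all libraries, and 3 of 8 were called higher in that comparison. Igfbp6 also had an r of 0.608 to the neuron, 0.596 to the cortex projection neuron and 0.399 to the striatum score. Replicate 1 of IL-4 MSC at 3 wpi, lowest of its group in Igfbp6, was also lowest in interneuron (5.88) and striatum (4.64) scores. Its group mates had 6.23 to 6.31 and 6.58 to 7.36 in these scores. The part of these cells and of dissection in the Igfbp6 values was not tested.

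**Figure D4:**
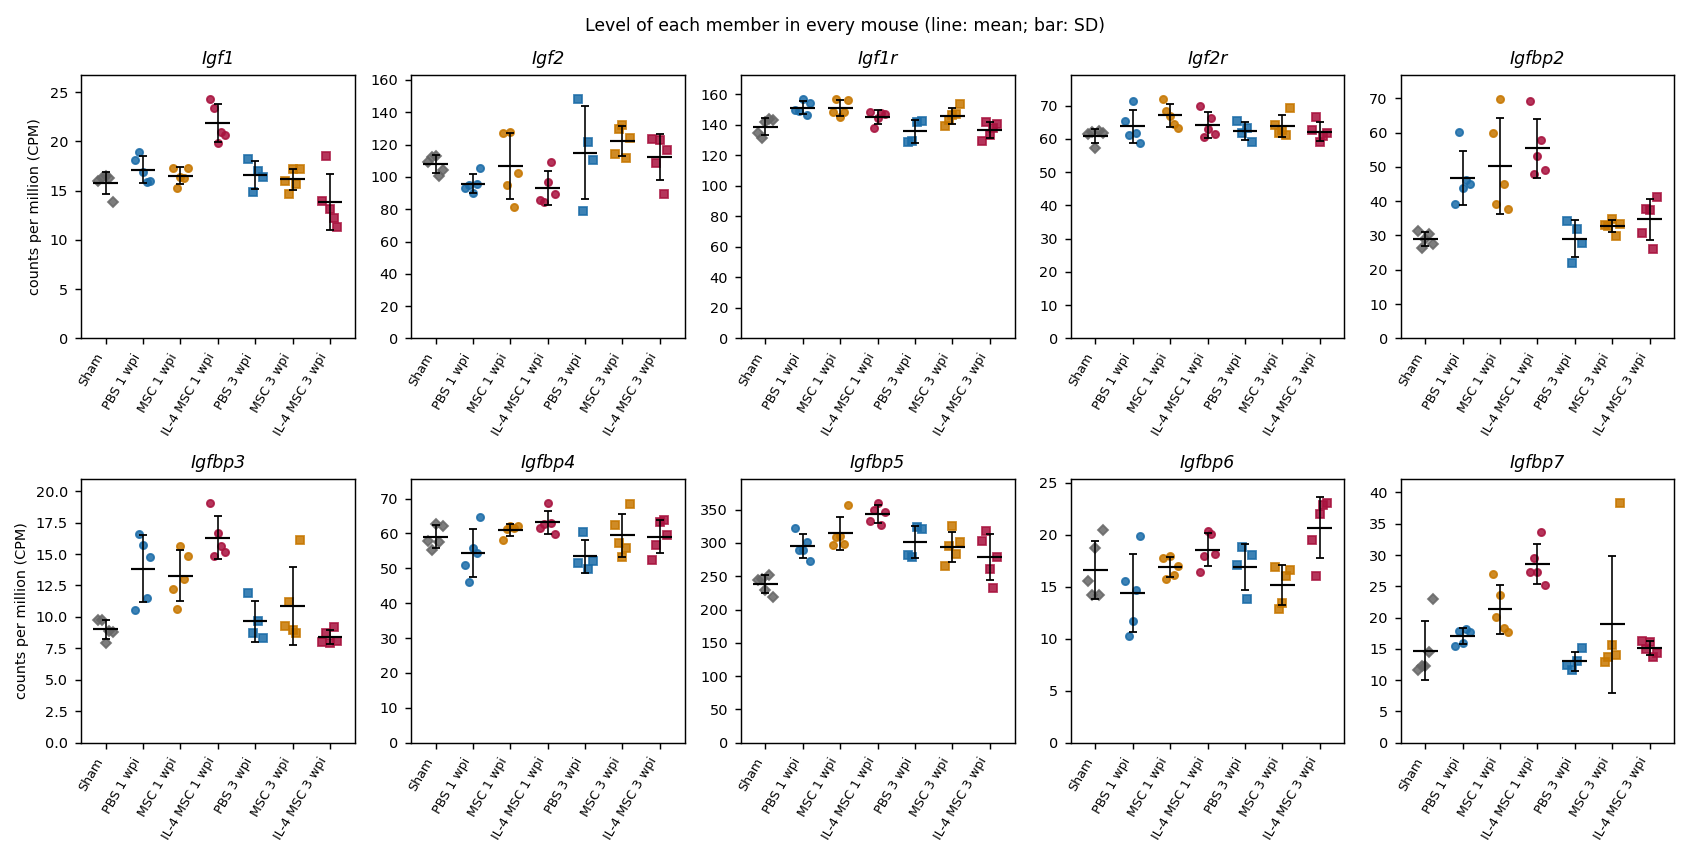
CPM of each member in every mouse of the 7 groups, with the group mean as a line and the SD as a bar; each panel has its own axis from 0. The 5 IL-4 MSC mice at 1 wpi lie above all Sham, PBS 1 wpi and MSC 1 wpi mice in Igf1, while MSC 3 wpi replicate 4 stands alone in Igfbp7 at 38.3 CPM.

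Markers of other cells moved in the same samples as the members. In bulk tissue, fewer cells of a type and less RNA per cell cannot be told apart. The 13 macrophage and microglia markers summed to 200.1 to 338 CPM in Sham, 469 to 613 CPM in PBS, 512 to 666 CPM in MSC and 745 to 989 CPM in IL-4 MSC at 1 wpi, and all 13 were called higher than in Sham in each of these groups. The 10 infiltrating and border macrophage markers were Mrc1, Cd163, Lyve1, Pf4, F13a1, Ccr2, Ms4a7, Ly6c2, Arg1 and Chil3. They summed to 12.6 to 22.4 CPM in Sham and to 361 to 541 CPM in IL-4 MSC at 1 wpi, with 9 called higher, against 23.99 to 36.6 CPM in PBS and 23.6 to 46.8 CPM in MSC. The paper counts Mrc1 and Cd163 as M2-like genes. More cells of this kind and a response of cells to interleukin-4 cannot be told apart in these sums. Of the 8 endothelial markers, at 229 to 258 CPM in Sham and 299 to 373 CPM in IL-4 MSC at 1 wpi, 6 were higher than in Sham and 7 higher than in PBS. Of the 8 astrocyte markers, 5 were higher than in Sham in PBS, 5 in MSC and 6 in IL-4 MSC at 1 wpi, where 1 was lower, and they summed to 4638 to 5075 CPM in Sham, 5744 to 6218 CPM in PBS, 5653 to 6605 CPM in MSC and 5442 to 6241 CPM in IL-4 MSC. Of the 9 neuron markers, 6, 6 and 8 were lower than in Sham, with sums of 7050 to 7533 CPM in Sham and 6281 to 6839, 6383 to 6651 and 6247 to 6665 CPM in PBS, MSC and IL-4 MSC. No gene of these lists was at 0 in all libraries.

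Igfbp7 had its closest marker lists among these, with an r of 0.715 to the macrophage and microglia score, 0.673 to the infiltrating and border macrophage score and 0.61 to the endothelial score over 34 libraries after removal of group means. Igfbp3 had an r of 0.717 to the infiltrating and border macrophage score. MSC 3 wpi replicate 4 stood apart in that score, at 1.23 against -0.479 to -0.243 in its group mates. This mouse also had the highest Igfbp3 (16.15 CPM) and Igfbp7 (38.3 CPM) of its group, and r was not computed without it. For Igf1 the highest r was 0.573, to the astrocyte score, and the lowest was -0.644, to the interneuron score. Igfbp5 had an r of 0.519 to the astrocyte score. Posterior Hox genes, which are largely silent in forebrain and active in cells of the trunk and limbs, summed to 1.08 to 1.46 CPM in Sham. At 1 wpi they summed to 0.883 to 1.75 CPM in PBS, 1.21 to 4.28 CPM in MSC and 2.52 to 4.27 CPM in IL-4 MSC. Of the 7 tested, 4 and 5 were higher than in Sham in MSC and IL-4 MSC at 1 wpi. The MSC mouse at 1.21 CPM, within the Sham range, was replicate 2, which also had the highest Igfbp2. At 3 wpi the sums were 0.896 to 1.36 CPM in MSC and 1.11 to 1.57 CPM in IL-4 MSC. The points share library and dissection, and the part of these cells in the members' values was not tested.

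**Figure D5:**
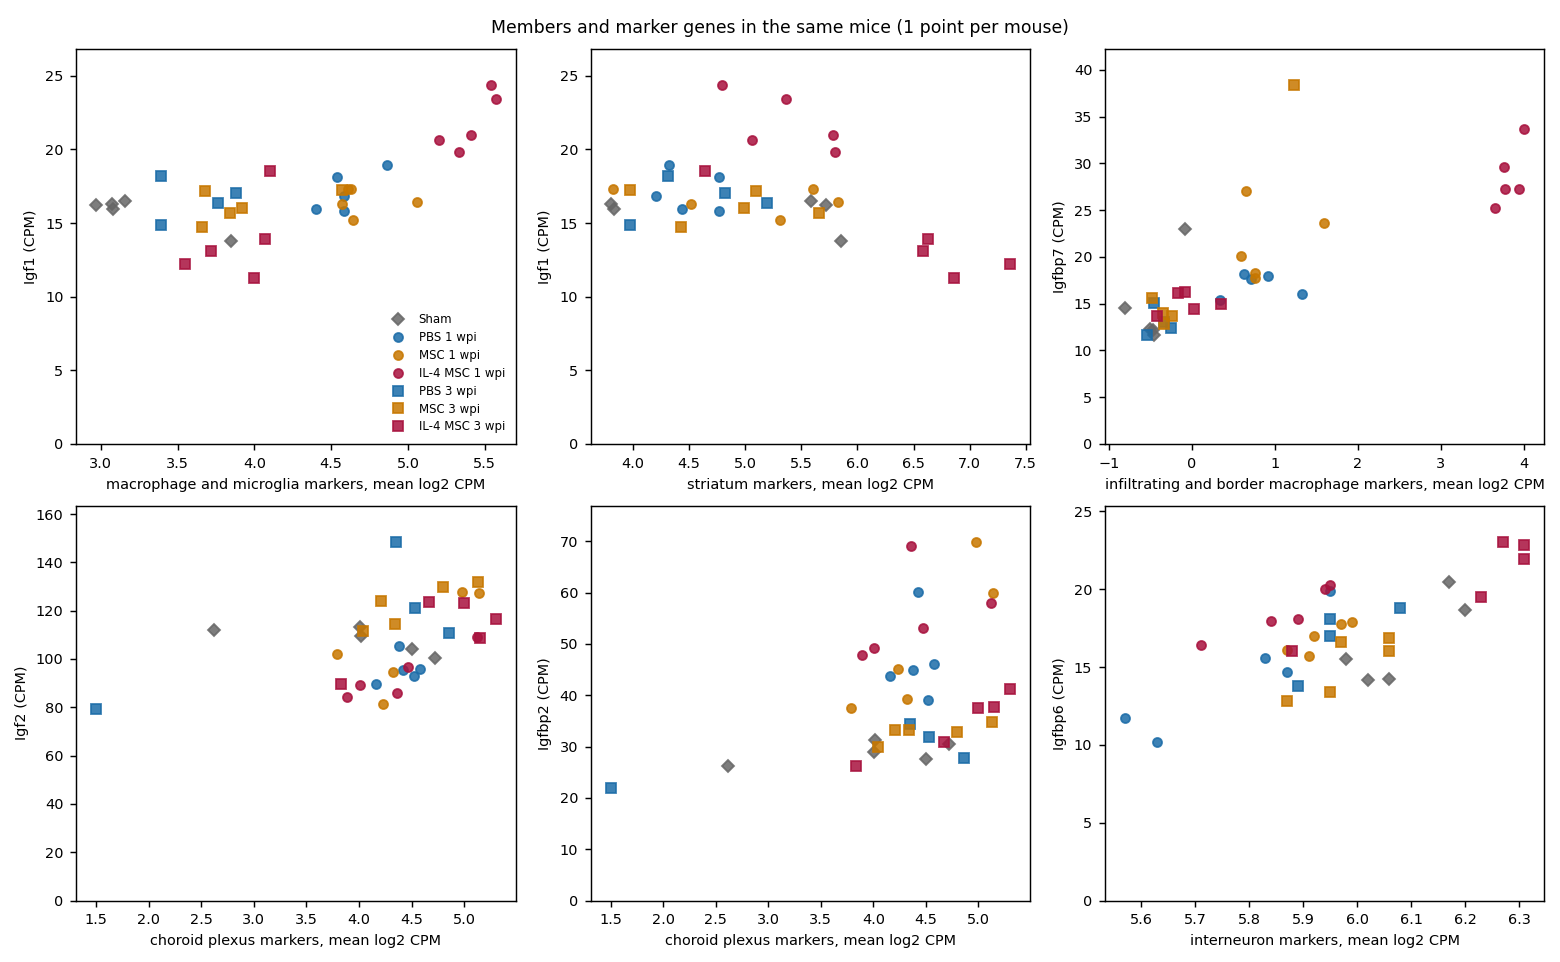
Level of Igf1, Igfbp7, Igf2, Igfbp2 and Igfbp6 in CPM against the mean log2 CPM of a marker list in the same mouse, 1 point per mouse and colours and shapes by group. PBS 3 wpi replicate 1 lies apart at a choroid plexus score of 1.5 with the lowest Igf2 (79.1 CPM), and IL-4 MSC 3 wpi replicate 1 has the highest Igf1 and the lowest striatum score of its group.

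Beyond the 10 members, 48 further genes of the IGF system had been listed, of which 43 were tested. Against Sham at 1 wpi, 2 were higher and 2 lower in PBS, 3 higher and 2 lower in MSC and 9 higher and 11 lower in IL-4 MSC. Over all genes, 18.4% were higher and 18.4% lower in that last comparison, so the list lay near the background. In IL-4 MSC at 3 against 1 wpi, 7 were higher and 5 lower, where 16.3% of all genes were higher and 16.5% lower. Their median log2 fold change was between -0.05 and 0.03 in the 15 comparisons.

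Among the growth hormone axis genes, Stat5a, a transcription factor downstream of cytokine and growth hormone receptors, was called most often, in 8 comparisons. It was higher than in Sham at 1 wpi by 0.75 in PBS (adjusted p = 0.000176), 0.80 in MSC (adjusted p = 5.39e-05) and 1.47 in IL-4 MSC (adjusted p = 1.1e-10). Jak2, the kinase of those receptors, was higher in IL-4 MSC at 1 wpi than in Sham by 0.47 (adjusted p = 5.4e-07) and than in PBS by 0.47 (adjusted p = 2.32e-06). Shc1, an adaptor of receptor tyrosine kinases, rose against Sham by 0.40 in MSC (adjusted p = 0.000518) and 0.62 in IL-4 MSC (adjusted p = 2.24e-07). Adamts1, a protease listed for its action on binding proteins, rose in IL-4 MSC by 0.86 (adjusted p = 0.000566).

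Igfbpl1, a binding-protein-like gene of immature neurons, was higher than in Sham in all 3 groups at 1 wpi, by 0.86, 0.97 and 0.80, and in IL-4 MSC at 3 wpi by 1.29 (adjusted p = 0.00316). Foxo1, a transcription factor that insulin and IGF signalling keeps out of the nucleus, was higher in IL-4 MSC at 3 wpi than in Sham by 0.45 (adjusted p = 0.00658). Both moved in a group whose striatum markers were also higher, as given for Igf1, and the part of dissection in them was not tested.

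The 18 genes of the PI3K, AKT and mTOR cascade, which carries the signal of Igf1r inside the cell, gave 1 higher and 11 lower in IL-4 MSC against Sham at 1 wpi, by small amounts, where 18.4% of all genes were lower. Mtor differed by -0.17 (adjusted p = 0.000119), Gsk3b by -0.14 (adjusted p = 0.00045) and Pdpk1 by -0.18 (adjusted p = 0.000955). How many were called in each direction depended on the scaling: on library size alone 2 were higher and 2 lower, and by DESeq2 1 higher and 11 lower. The list's median was -0.10 with TMM and -0.03 on library size alone, beside -0.02 and 0.05 over all genes tested. On library size alone, Gsk3b differed by -0.07 and was not called (adjusted p = 0.0743). Neuron markers moved in the same comparison, with 8 of 9 lower and a summed level of 7050 to 7533 CPM in Sham and 6247 to 6665 CPM in IL-4 MSC, and their part in these values was not tested. Of the insulin receptor family, Insr and Insrr were tested, and in IL-4 MSC against Sham at 1 wpi edgeR called 0 of 2, DESeq2 0, and 0 had an unadjusted p-value under 0.05 with TMM.

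Some genes next to the members share their sequence or position. Gm49394, a readthrough gene over Igf2, was at 0.118 to 1.14 CPM, and Ins2, which lies beside it, at 0 to 0.226 CPM. Igfbp1, 3539 bases from Igfbp3, was at 0 to 0.125 CPM. Estimated counts of Igf2, Igf1r, Igfbp4 and Igfbp7 were not whole in 33, 34, 34 and 28 of 34 libraries. Those of Igf2r, Igfbp2, Igfbp3, Igfbp5 and Igfbp6 were whole within 0.01 in all. Kallisto splits reads that fit several transcripts, and whether these belong to the same gene or to others was not tested. Igf1r has 1 coding transcript in GENCODE, and Igfbp2 and Igfbp3 have 2 each.

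Likeness to each member was measured as Pearson's r of log2 CPM over 34 libraries after removal of the group means, and is a description across libraries that share dissection. Nearest to Igf1 were Calu (r = 0.746) and Mreg (0.744), and to Igf2 Slc13a4 (0.907) and Bmp6 (0.753). Kdm7a (0.81) was nearest to Igf1r and Wdfy3 (0.78) to Igf2r. Among the binding proteins, Igfbp2 was most like Cdkn1c (0.756), Igfbp3 like Sdcbp (0.804), Igfbp4 like Rnf39 (0.802), Igfbp5 like Cda (0.686), Igfbp6 like Lamp5 (0.875) and Igfbp7 like Ly6a (0.877). Over the 7 group means, Igf1 was most like Rara (0.982) and Igf2 most like Sgk2 (0.985). Between members, the highest r was that of Igfbp4 with Igfbp6 (0.713), followed by Igf2 with Igfbp2 (0.61).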

How the data were processed

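Bulk RNA-seq libraries were made from brain tissue of 34 mice in 7 groups. Per the labels and methods, reads were trimmed with cutadapt 2.4 after FastQC 0.11.8, and the authors used kallisto 0.46 against protein-coding GENCODE transcripts (GRCm38) and sleuth 0.30 in R 3.6.1. The authors deposited estimated counts per gene, which are not normalized, and TPM values, which kallisto scales by transcript length and library. The 63 columns of the authors' own comparisons (fold changes and p-values) were not used, and the 1 PBS mouse they excluded was not analysed here.

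Groups were taken from the labels. Estimated counts were rounded to whole numbers, genes with low counts were filtered (edgeR filterByExpr), and TMM factors and robust quasi-likelihood tests were run in edgeR 4.0.16 (limma 3.58.1, R 4.3.3) on all 34 libraries together, for 15 comparisons and for 3 differences between the weeks. P-values were adjusted by Benjamini-Hochberg over 17131 genes. DESeq2 1.42.0, library size scaling, no filter, a replicate block, smaller fits, Sham of the same week and leaving out each library were alternatives. The striatum and choroid plexus scores as covariates, and leaving out the libraries high in macrophage markers together, were added after seeing the data. Marker scores are means of log2 CPM with a prior count of 2. Scripts were tested on simulated data. Summaries used Python 3.11.15.

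All 10 members are named, pathway genes where called in at least 3 of 15 comparisons, and for likeness the nearest by Pearson's r out of the 3 kept per member. The members and lists were chosen with earlier results of these data known. Depth was 29838423 to 41554322 counts per library. The counting floor of 3 counts covers counting error only.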

Additional observations from a re-analysis of the deposited data

Results flagged for a closer look

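In 6 of 70 groups of 4 or 5 mice, 1 mouse lay far from the rest by Dixon's criterion, which chance exceeds in about 1 in 20 groups. Sham replicate 4 had the lowest Igf1 of its group (13.81 CPM, next 15.99) and the highest Igfbp7 (23.0 CPM, next 14.57). MSC 3 wpi replicate 4 had the highest Igfbp7 of its group (38.34 CPM, next 15.62). These are the libraries high in macrophage markers, and the part of those cells in the values was not tested. Sham replicate 2 had the lowest Igf2r (57.21 CPM, next 61.44), MSC 1 wpi replicate 0 the lowest Igfbp4 (58.06 CPM, next 61.2), and MSC 1 wpi replicate 4 the highest Igfbp5 (356.9 CPM, next 311.0).

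In 3 cases a treatment difference itself differed between 1 and 3 wpi in edgeR's interaction test. For Igf1 it was larger at 1 wpi by 0.5761 on the log2 scale for IL-4 MSC against PBS (adjusted p = 0.00514) and by 0.6032 for IL-4 MSC against MSC (adjusted p = 0.00158). For Igfbp3, IL-4 MSC against MSC was 0.27 at 1 wpi (adjusted p = 0.279) and -0.37 at 3 wpi (adjusted p = 0.146), and these signed differences were 0.6408 apart (adjusted p = 0.0405).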

How the results depend on the processing

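Counts of called members that moved by more than 1.5 times were these. Library size scaling alone gave 5 in MSC 1 wpi against Sham (adding Igf1r and Igf2r), 1 in IL-4 MSC 3 wpi against Sham (Igfbp5), 4 in IL-4 MSC against PBS at 1 wpi (adding Igfbp4 and Igfbp5) and 2 for the difference of IL-4 MSC against PBS between the weeks (adding Igfbp5). DESeq2 gave 1 in PBS 3 wpi against Sham, 1 in IL-4 MSC 3 wpi against Sham, 1 in IL-4 MSC against MSC at 3 wpi and 2 for that same difference between the weeks. With the 2 groups compared alone in the fit, MSC 3 wpi against MSC 1 wpi gave 0. With the 4 groups alone, the differences between the weeks gave 2 for IL-4 MSC against PBS and 1 for IL-4 MSC against MSC. Sham of the same week gave 0 in PBS 1 wpi and 0 in MSC 3 wpi. Smaller moves were 2 in MSC 1 wpi with Sham of the same week, losing Igfbp3, Igfbp5 added by DESeq2 in IL-4 MSC against PBS at 1 wpi, and, with the 2 groups alone, Igf2 added in PBS and IL-4 MSC 1 wpi against Sham and Igfbp7 in PBS between the weeks (adjusted p = 0.0194). With the 2 groups alone, PBS between the weeks also lost Igf1r (adjusted p = 0.138) and Igfbp3 (adjusted p = 0.115). Ranking members by CPM in place of TPM kept the rank of 1 of 10. The cause of these moves was not tested.

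Some alternatives were chosen after seeing the data. The striatum score as a term in the fit gave 1 in IL-4 MSC 3 wpi against Sham and 1 for the difference of IL-4 MSC against MSC between the weeks. The choroid plexus score as a term added Igf2 in IL-4 MSC 1 wpi against Sham and in PBS between the weeks, where Igf1r was lost. Without Sham replicate 4 and MSC 3 wpi replicate 4 together, MSC 3 wpi against Sham gave 0, MSC 3 wpi against MSC 1 wpi gave 3 and the difference of IL-4 MSC against MSC between the weeks gave 1.

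With the replicate block, IL-4 MSC against PBS at 1 wpi gave 4 (adding Igf1r and Igfbp6) and IL-4 MSC against MSC at 3 wpi gave 1 (Igfbp6), and it gave 2 for PBS 3 wpi against PBS 1 wpi, losing Igfbp3. The labels give no pairing beyond the number. Of 99 same-numbered pairs, 30 had deviations correlated over 0.1, and 7 of 34 libraries correlated best with their own number.

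Leaving out 1 library at a time gave 3 to 5 members in PBS 1 wpi against Sham, 0 to 1 in MSC 3 wpi and in IL-4 MSC 3 wpi against Sham, 2 to 4 in IL-4 MSC against PBS at 1 wpi, 0 to 1 in IL-4 MSC against PBS at 3 wpi, 0 to 3 in IL-4 MSC against MSC at 3 wpi, 1 to 3 in PBS and 0 to 3 in MSC between the weeks, and 1 to 2 for the differences of IL-4 MSC against PBS and against MSC between the weeks. No called member value changed sign under these alternatives. The small differences of Igf1r are near the size of the scaling shift, and cells, dissection and graft cannot be told apart in bulk tissue.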
